A study of Mus musculus with 6 samples.

Results

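The lymphocyte lineage transcription factors described here are 7 genes, Tbx21, Gata3, Eomes, Tcf7, Lef1, Bcl6 and Ikzf3, taken by gene name from a table of 54532 genes. Each name matched 1 row. Abdominal aorta was profiled by RNA sequencing in Olfr2 knockout (KO) mice and in wild type (WT) mice, both taken on day 7 after an aneurysm, a bulge of the vessel wall, had been induced. There were 3 libraries of each genotype, and the animals differ in the labels only by genotype. Olfr2 encodes a G protein-coupled receptor of the odorant-sensing family. Strain, age, the kind of knockout allele, the method of induction and the number of animals behind a library are in none of the labels used here, so the spread behind each p-value is that between libraries and may be technical. Library totals lay between 17248918 and 21872027 gene counts. Olfr2 had 0 counts in all 6 libraries, which allows up to 3 counts in each, so the genotype labels could not be checked from it.

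Lineage-determining transcription factors switch on the gene programme of one lymphocyte type and hold down those of others. Tbx21 encodes T-bet, which directs the type 1 programme of interferon gamma production, and Eomes encodes a second T-box factor that with T-bet drives natural killer (NK) cells and cytotoxic CD8 T cells. Gata3 directs the type 2 programme and is also needed for T cell development. Tcf7, which encodes TCF-1, and Lef1 are related factors of naive and memory T cells, and outside lymphocytes they act with beta-catenin in Wnt signalling. Bcl6 encodes a repressor needed by germinal centre B cells and T follicular helper cells, and many other cell types also transcribe it. Ikzf3 encodes Aiolos, an Ikaros family zinc finger protein of B cells and T cells. Lymphocytes are a minority of the cells of an aorta, and in bulk tissue fewer cells of a type and less RNA per cell cannot be told apart.

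Of the 7 genes, 7 had a lower mean in KO than in WT aorta, as did 48.0% of all tested genes, and 0 passed an adjusted p of 0.05. Genes were tested by the quasi-likelihood method of edgeR, adjusted by Benjamini-Hochberg over 16237 tested genes, of which 2, or 0.0123%, passed, neither of them lower in KO. The log2 fold changes, KO over WT, lay between -0.999 and -0.20 with a median of -0.53, beside a median of 0.01 over all tested genes. At an unadjusted p under 0.05, 5 of the 7 were lower in KO and 0 higher, where 6.08% of all tested genes were lower and 5.23% higher. The KO libraries lay below all WT libraries for 3 of the 7, Tbx21, Gata3 and Ikzf3, as for 9.01% of all tested genes, and above them for 0, where the share over all genes was 7.83%. The count of 5 was 3 without KO replicate 1, without KO replicate 2 or without WT replicate 3, and 7 without KO replicate 3. With a library left out, here and in the counts below, the share of all tested genes at that threshold was not computed.

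**Figure D1:**
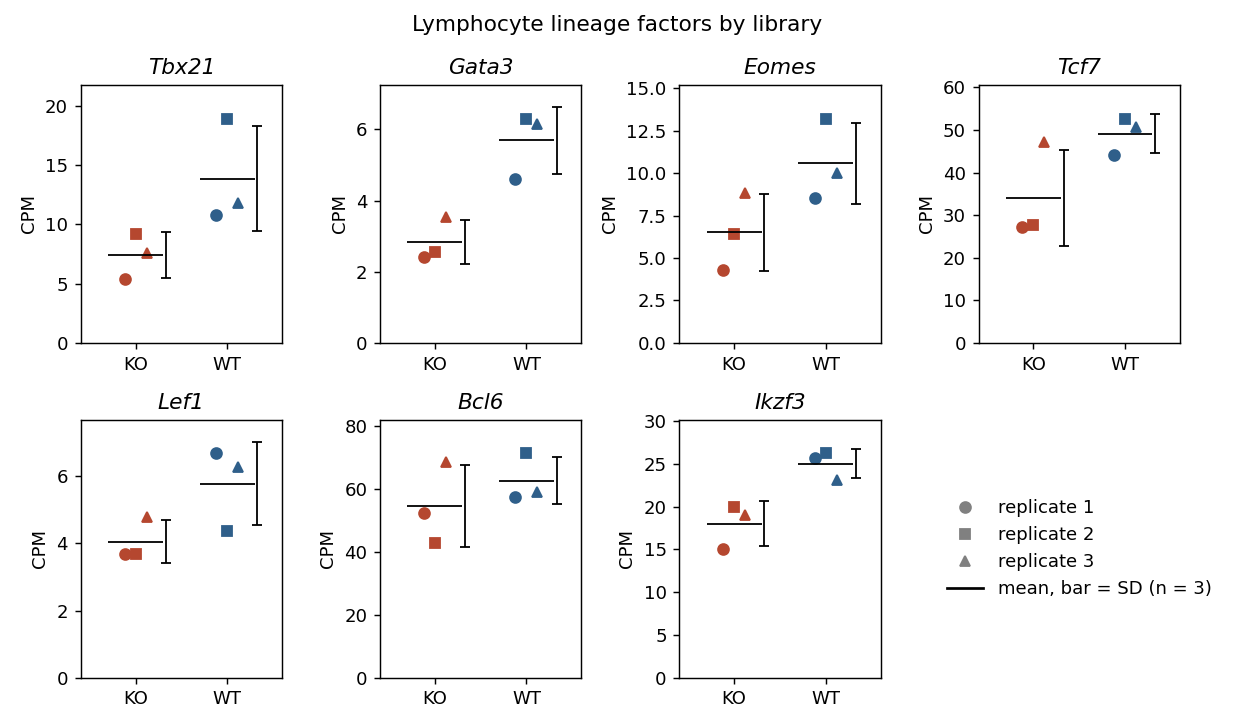
Counts scaled to library size (CPM) of the 7 genes in each KO and WT library, with the mean as a line and the SD as a bar (n = 3 each); symbols give the replicate number and each vertical axis starts at 0. KO and WT points do not overlap for Tbx21, Gata3 and Ikzf3, and KO replicate 3 is the highest KO point for Gata3, Eomes, Tcf7, Lef1 and Bcl6.

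The 5′ flanks of 3 members are shown as sequence because they lie before a start site of each T-box factor and before the outer start of Bcl6, the member with the smallest fold change. Each run is the 250 bases before a RefSeq start, read 5′ to 3′ on the gene's strand in build GRCm38.p6, at chr11:97115332-97115581 on the minus strand for Tbx21, chr9:118477939-118478188 on the plus strand for Eomes and chr16:23988853-23989102 on the minus strand for Bcl6. Capitals mark matches to any of the 7 motifs searched.
Tbx21: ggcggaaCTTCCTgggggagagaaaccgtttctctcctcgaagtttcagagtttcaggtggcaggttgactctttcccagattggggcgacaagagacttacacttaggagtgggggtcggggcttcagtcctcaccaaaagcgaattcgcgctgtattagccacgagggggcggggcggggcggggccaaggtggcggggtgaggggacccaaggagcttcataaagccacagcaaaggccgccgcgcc
Eomes: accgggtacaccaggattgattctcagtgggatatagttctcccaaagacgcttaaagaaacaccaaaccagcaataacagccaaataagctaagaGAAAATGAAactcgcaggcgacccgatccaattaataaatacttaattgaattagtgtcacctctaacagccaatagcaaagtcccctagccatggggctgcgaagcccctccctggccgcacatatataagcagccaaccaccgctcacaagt
Bcl6: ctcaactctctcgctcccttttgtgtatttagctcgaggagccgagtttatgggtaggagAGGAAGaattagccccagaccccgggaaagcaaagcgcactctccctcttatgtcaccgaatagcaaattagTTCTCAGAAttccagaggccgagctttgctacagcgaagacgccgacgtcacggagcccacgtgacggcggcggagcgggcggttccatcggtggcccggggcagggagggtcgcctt
The motifs, searched on both strands with overlaps allowed, were TCACACC for T-box factors, AGATAA for GATA factors, CTTTGAT for TCF and LEF factors, TGTGGT for RUNX factors, AGGAAG for ETS factors, TTCNNNGAA for STAT factors and GAAANNGAA for the interferon response element. The Tbx21 flank held the ETS letters as CTTCCT, 243 bases before the start, and AGGAAG on either strand is in 29.5% of 32851 windows of this length in the table. In the Eomes flank GAAAATGAA stood 154 bases before the start, and the interferon response motif is in 7.13% of windows. Bcl6 had AGGAAG at 190 and TTCTCAGAA at 118 bases before this start. A second Bcl6 window, before an inner start and not shown, held the ETS letters at 1 place and the STAT letters at 3. The STAT motif is in 7.02% of windows. A window was found for 6 of the 7 genes, in 11 windows in all, of which 4 held the ETS, 2 the STAT and 1 the interferon response letters. The T-box, GATA, TCF/LEF and RUNX letters were in 0 of the 11, which says only that those letters are not in these windows. They are in 3.33%, 9.99%, 3.21% and 14% of all windows, in that order.

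Tbx21 (ENSMUSG00000001444, chromosome 11, 97098071 to 97115331, minus strand, GRCm38) had 5.39, 9.21 and 7.60 CPM in KO replicates 1 to 3, against 10.82, 18.9 and 11.8 CPM in WT replicates 1 to 3. All KO libraries lay below all WT libraries, and WT replicate 2 stood highest. KO averaged 7.40 ± 1.92 and WT 13.8 ± 4.42 CPM (SD, n = 3 each), from 94 to 180 counts per KO library and 199 to 312 per WT library. Its log2 fold change of -0.90 (SE 0.27) did not pass (adjusted p = 0.25, edgeR). Without WT replicate 2 it was -0.61 with an adjusted p of 0.556 (edgeR), and by DESeq2, which called 451 genes over the whole table, it passed with an adjusted p of 0.0447.

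Eomes (ENSMUSG00000032446, chromosome 9, 118478212 to 118486132, plus strand) had 4.30, 6.39 and 8.86 CPM in KO replicates 1 to 3, against 8.53, 13.2 and 10.02 CPM in WT replicates 1 to 3. The groups overlapped, since KO replicate 3 stood just above WT replicate 1. The log2 fold change was -0.69 (SE 0.28) with an adjusted p of 0.388 (edgeR). With KO replicate 3 left out it was -0.98, and with KO replicate 1 left out it was -0.47, with adjusted p-values of 0.249 and 0.701 (edgeR).

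Gata3 (ENSMUSG00000015619, chromosome 2, 9857078 to 9890034, minus strand) had 2.41, 2.56 and 3.54 CPM in KO replicates 1 to 3, against 4.62, 6.31 and 6.16 CPM in WT replicates 1 to 3. It had the lowest fold change of the 7, and its KO and WT libraries did not overlap. KO averaged 2.84 ± 0.616 and WT 5.70 ± 0.934 CPM (SD, n = 3 each), with a log2 fold change of -0.999 (SE 0.25) that did not pass (adjusted p = 0.186, edgeR). By DESeq2 it passed with an adjusted p of 0.0383. These values rest on 42 to 76 counts per KO library and 85 to 107 per WT library. Exons of other genes cover 5.83% of its exon bases, and those genes had at most 2 counts in any library.

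Tcf7 (ENSMUSG00000000782, chromosome 11, 52252371 to 52283014, minus strand) had 27.3, 27.8 and 47.1 CPM in KO replicates 1 to 3, against 44.1, 52.7 and 50.7 CPM in WT replicates 1 to 3. KO replicates 1 and 2 lay below every WT library, and KO replicate 3 lay inside the WT range. KO averaged 34.04 ± 11.3 and WT 49.2 ± 4.48 CPM (SD, n = 3 each). The log2 fold change was -0.53 (SE 0.21) with an adjusted p of 0.379 (edgeR), and -0.84 with an adjusted p of 0.125 (edgeR) without KO replicate 3.

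Lef1 (ENSMUSG00000027985, chromosome 3, 131110471 to 131224356, plus strand) had 3.67, 3.68 and 4.80 CPM in KO replicates 1 to 3, against 6.69, 4.37 and 6.27 CPM in WT replicates 1 to 3. WT replicate 2 lay inside the KO range. The log2 fold change was -0.51 (SE 0.24) with an adjusted p of 0.488 (edgeR). Of its exon bases, 13.7% are covered by Gm43352 on the opposite strand, which had at most 2 counts in any library.

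Ikzf3 (ENSMUSG00000018168, chromosome 11, 98464902 to 98546031, minus strand) had 15.03, 19.95 and 19.1 CPM in KO replicates 1 to 3, against 25.8, 26.3 and 23.1 CPM in WT replicates 1 to 3. The groups did not overlap, and the SD within each was small beside the gap between the means, with KO at 18.02 ± 2.62 and WT at 25.03 ± 1.71 CPM (SD, n = 3 each). The log2 fold change was -0.47 (SE 0.15) with an adjusted p of 0.266 (edgeR).

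Bcl6 (ENSMUSG00000022508, chromosome 16, 23965052 to 23988852, minus strand) had 52.5, 42.9 and 68.7 CPM in KO replicates 1 to 3, against 57.7, 71.4 and 59.1 CPM in WT replicates 1 to 3. The groups overlapped widely, with KO at 54.7 ± 13.04 and WT at 62.7 ± 7.56 CPM (SD, n = 3 each). The log2 fold change of -0.20 (SE 0.17) did not pass (adjusted p = 0.748, edgeR), and it lay between -0.40 and -0.05 with 1 library left out at a time.

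Levels of different genes were set side by side per kilobase of exon (CPM divided by merged exon length, a length that several isoforms make approximate). On that scale the order of the means was the same in both genotypes. Tcf7 stood highest, at 12.97 ± 4.31 in KO and 18.7 ± 1.71 in WT, followed by Bcl6 at 8.16 ± 1.95 in KO and 9.36 ± 1.13 in WT (SD, n = 3 each). Tbx21 followed at 2.97 ± 0.770 in KO and 5.56 ± 1.78 in WT, then Ikzf3 at 2.06 ± 0.2995 in KO and 2.86 ± 0.195 in WT, and Eomes at 1.57 ± 0.549 in KO and 2.55 ± 0.576 in WT (SD, n = 3 each). Gata3, at 0.713 ± 0.155 in KO and 1.43 ± 0.235 in WT, and Lef1, at 0.461 ± 0.0739 in KO and 0.657 ± 0.141 in WT, were lowest (SD, n = 3 each). Of the neighbours in that order, Ikzf3 and Eomes overlapped in both genotypes and Tbx21 and Ikzf3 overlapped in KO, while the libraries of the other neighbouring pairs did not overlap.

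**Figure D2:**
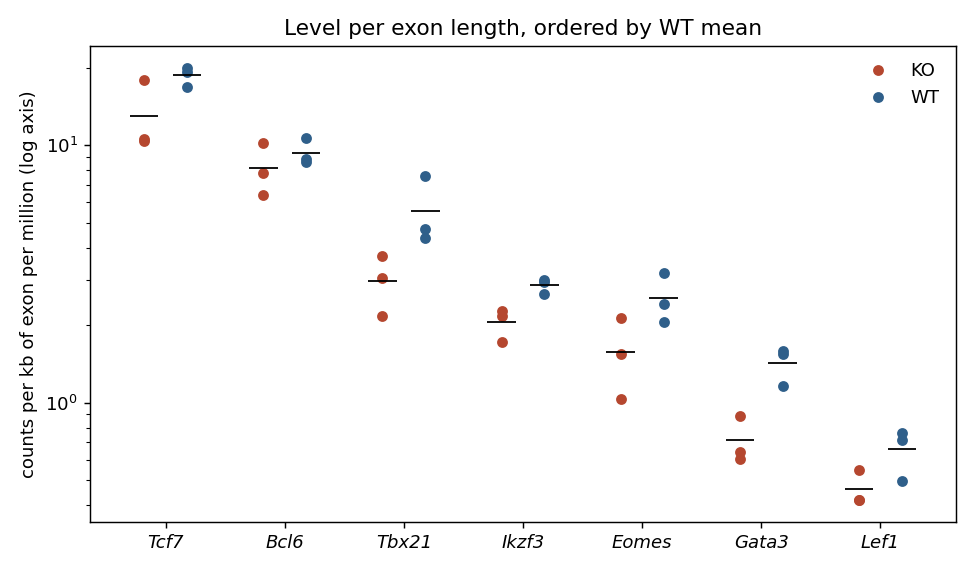
Level of each gene as CPM per kilobase of exon, on a log axis, in KO and WT libraries; points are libraries and lines are means (n = 3 each), ordered from left to right by the WT mean. Tcf7 leads at 12.97 in KO and 18.7 in WT and Lef1 is last at 0.461 in KO and 0.657 in WT, with the same order of means in both genotypes.

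Markers of the cells that use these factors were set beside them. The 11 T cell markers, chains of the T cell receptor complex and genes such as Lck, summed to 191.5 to 205.9 CPM in KO libraries and 282 to 358 CPM in WT libraries. At an unadjusted p under 0.05, 11 of the 11 were lower in KO, against the 6.08% of all tested genes, and 0 passed after adjustment over all genes; their median log2 fold change was -0.68. The 7 NK cell markers summed to 97.2 to 135.3 CPM in KO and 166.3 to 244.8 CPM in WT, with 5 of 7 lower at that unadjusted threshold, and 3 of 7 without WT replicate 2. The coreceptor gene Cd4 stood at -0.60 (SE 0.18) on the log2 fold change scale and Cd8a at -0.91 (SE 0.32), and neither passed after adjustment. The 8 B cell markers overlapped between genotypes, at 33.9 to 51.6 CPM in KO and 34.4 to 58.3 CPM in WT, with 1 of 8 lower at an unadjusted p under 0.05 and a median log2 fold change of 0.11. None of these markers was at 0 in every library.

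Each gene was then expressed relative to the T cell markers of its own library, as log2 CPM minus the mean log2 CPM of those 11 markers; these differences are descriptions and were given no test. On that scale the KO mean minus the WT mean was -0.21 for Tbx21, -0.31 for Gata3, -0.05 for Eomes, 0.10 for Tcf7, 0.18 for Lef1, 0.19 for Ikzf3 and 0.45 for Bcl6. Bcl6 stood at 1.70, 1.31 and 2.10 log2 units above the markers in KO replicates 1 to 3. Its WT replicates 1 to 3 stood at 1.28, 1.25 and 1.20, and Bcl6 was the only one of the 7 whose genotypes did not overlap on this scale. The mean of the markers itself differed by -0.67 (KO minus WT). A gene with equal CPM in both genotypes therefore stands higher in KO on this scale. The share of all tested genes that do not overlap on it was not computed. Gata3 stood at -2.69, -2.71 and -2.13 log2 units in KO replicates 1 to 3, against -2.33, -2.23 and -2.04 in WT replicates 1 to 3, and its KO replicate 3 lay inside the WT range. Tcf7 was highest in KO replicate 3, at 1.56 above the markers, where the other 5 libraries lay between 0.68 and 0.98.

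**Figure D3:**
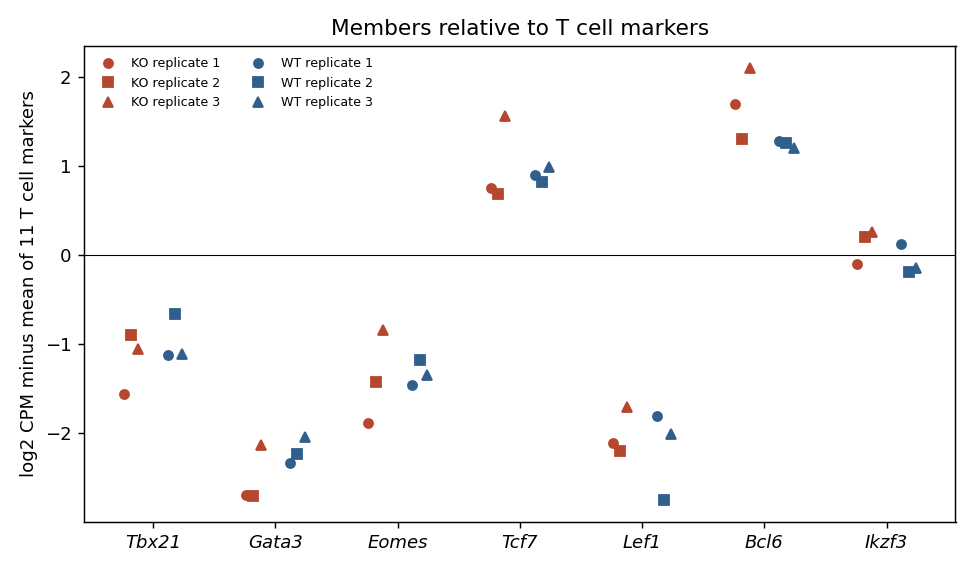
Log2 CPM of each gene minus the mean log2 CPM of 11 T cell markers in the same library, for KO and WT; symbols give the replicate number. Bcl6 lies between 1.31 and 2.10 in KO and between 1.20 and 1.28 in WT, while the genotypes overlap for the other 6 genes. The markers are themselves lower in KO, so a gene with equal CPM in both genotypes stands higher in KO here.

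The balance between factors was compared within libraries as the difference in log2 CPM of a pair of genes, for 4 pairs. Tbx21 exceeded Gata3 by 1.34 ± 0.41 in KO and by 1.23 ± 0.32 in WT (SD, n = 3 each), a difference of 0.10 (exact permutation p = 0.7, two-sided, Benjamini-Hochberg adjusted p = 0.8). For Eomes against Tbx21 the KO mean was 0.16 above the WT mean, for Tcf7 against Lef1 it was 0.09 below, and for Bcl6 against Prdm1, which encodes the plasma cell factor Blimp-1 that Bcl6 represses, it was 0.18 below. The exact permutation p-values were 0.7, 0.8 and 0.7 (two-sided, each 0.8 after Benjamini-Hochberg adjustment), and for 3 against 3 the smallest possible p is 0.1. In all 4 pairs the difference was smaller than the SD between libraries of at least one genotype.

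Other transcription factors of T, NK and innate lymphoid cells had a median log2 fold change of -0.18. Of 35 tested, 26 had a lower mean in KO, beside 48.0% of all tested genes. At an unadjusted p under 0.05, 7 were lower, beside 6.08% of all tested genes, 0 were higher, and 0 passed after adjustment. Ikzf1, which encodes Ikaros, the founding relative of Aiolos, averaged 96.6 in KO and 139.8 CPM in WT, with a log2 fold change of -0.53 (SE 0.11) that did not pass (adjusted p = 0.123, edgeR). Stat4, which carries the interleukin-12 signal in T and NK cells, had a log2 fold change of -0.68 (SE 0.18). Nfatc2, a factor activated by T cell receptor calcium signals, had -0.53 (SE 0.16), and Bcl11b, a T cell commitment factor, had -0.66 (SE 0.23). For each of these 4, named for the smallest unadjusted p of the list, all KO libraries lay below all WT libraries. That held for 8 of the 35, beside 9.01% of all tested genes. The count of 7 was 4 without KO replicate 1 or without WT replicate 3, and 3 with the mean white adipocyte marker level as a covariate. That level was higher in every KO library than in any WT library, so a fit with it cannot fully separate it from genotype. Of 8 B lineage factors, 1 was lower at an unadjusted p under 0.05, Spib at -0.82 (SE 0.27), an Ets factor of B cells and plasmacytoid dendritic cells. The median log2 fold change of these 8 was -0.07, and 5 had a lower mean in KO. Ebf1, an early B cell factor also transcribed in fat and stromal cells, had a log2 fold change of 0.26 (SE 0.11). Bcl11a (-0.73, SE 0.33) and Pou2af1 (-0.54, SE 0.36) were not under that threshold either.

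Type 1 and cytotoxic genes act downstream of T-bet and Eomes. Of 12 tested, 12 averaged lower in KO and 10 were lower at an unadjusted p under 0.05, beside 48.0% and 6.08% of all tested genes, with a median log2 fold change of -0.79 and 0 passing after adjustment. The granzyme gene Gzmk had 0.861, 1.07 and 1.07 CPM in KO replicates 1 to 3, against 4.57, 7.09 and 3.34 CPM in WT replicates 1 to 3, with a log2 fold change of -2.31 (SE 0.35) and an adjusted p of 0.102 (edgeR). Gzmb, the granzyme that triggers death of target cells, had -1.36 (SE 0.24), the chemokine receptor gene Cxcr3 had -0.78 (SE 0.18), and the interleukin-12 receptor gene Il12rb2 had -0.74 (SE 0.23). Exons of Serbp1, on the opposite strand, cover 40% of the exon bases of Il12rb2, and their part in its counts was not tested. The KO libraries lay below the WT libraries for 6 of the 12, beside 9.01% of all tested genes. The count of 10 was 6 without KO replicate 1 or without KO replicate 2, 5 without WT replicate 2, and 3 with the adipocyte covariate.

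Genes of the type 2 programme directed by Gata3 had a median log2 fold change of -0.01. Of 5 tested, 1 was lower at an unadjusted p under 0.05, the chemokine receptor gene Ccr8 (-0.80, SE 0.34). The share over all tested genes was 6.08%, and 0 of the 5 passed after adjustment. Il4, a type 2 cytokine, averaged 2.85 CPM in KO and 1.94 CPM in WT, a log2 fold change of 0.56 (SE 0.39), and the cytokine receptor gene Il17rb had -0.59 (SE 0.47). The chemokine receptor gene Ccr4 had 0.06 (SE 0.38). Il5 and Il13 had too few counts to be tested.

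Naive and memory T cell genes, which accompany Tcf7 and Lef1, had a median log2 fold change of -0.56, and 5 of 6 were lower at an unadjusted p under 0.05, beside 6.08% of all tested genes. None of the 6 passed after adjustment, and with the adipocyte covariate 1 of 6 was lower at the unadjusted threshold. Ccr7, the receptor that guides T cells and dendritic cells to lymph nodes, had 33.4, 21.2 and 35.2 CPM in KO replicates 1 to 3, against 68.6, 49.2 and 80.9 CPM in WT replicates 1 to 3, with a log2 fold change of -1.14 (SE 0.23) and an adjusted p of 0.121 (edgeR). Cd27 (-0.71, SE 0.18), a costimulatory receptor gene, and Slamf6 (-0.50, SE 0.15) did not overlap between genotypes either. All KO libraries lay below all WT libraries for 5 of the 6, beside 9.01% of all tested genes. Of 4 tested Wnt feedback genes 1 was lower at that threshold, the ubiquitin ligase gene Rnf43 (-0.94, SE 0.25). Axin2 (0.12, SE 0.23), Nkd1 (0.27, SE 0.19) and Znrf3 (0.02, SE 0.24) were not, and Sp5 and Notum were too low to be tested.

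Of 5 tested T follicular helper genes, which depend on Bcl6, 5 averaged lower in KO and 2 were lower at an unadjusted p under 0.05, the costimulator gene Icos (-0.65, SE 0.25) and the adaptor gene Sh2d1a (-0.54, SE 0.23). The shares over all tested genes were 48.0% and 6.08%. Cxcr5 (-0.43, SE 0.25) and Pdcd1 (-0.46, SE 0.27) were not. Of 5 genes that Bcl6 represses in lymphocytes 0 were lower or higher at that threshold, with log2 fold changes between -0.19 and 0.05. These were S1pr1 (-0.19), Socs2 (-0.08), Ccnd2 (-0.06), Prdm1 (-0.04) and Cish (0.05).

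**Figure D4:**
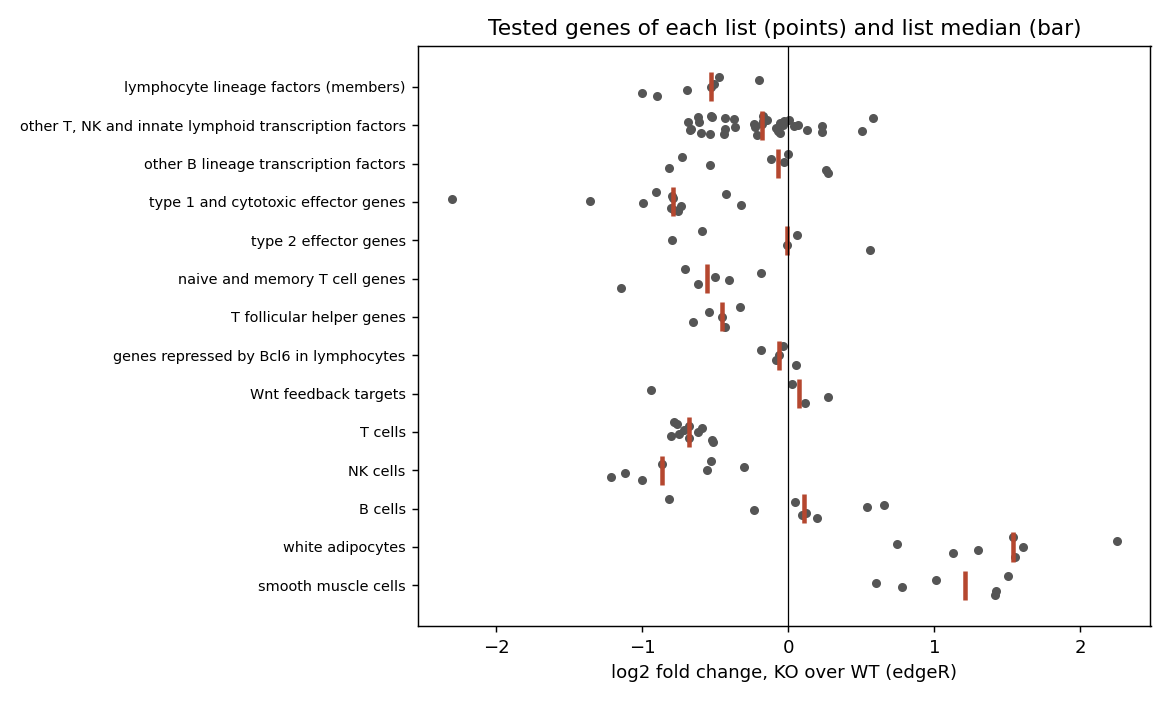
Log2 fold change, KO over WT, of every tested gene in 14 lists (points, spread vertically for legibility) with the list median as a bar. The 7 lineage factors have a median of -0.53, T cell markers of -0.68, type 1 and cytotoxic genes of -0.79 and B cell markers of 0.11, while white adipocyte and smooth muscle markers lie to the right of 0.

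Some markers of other cell types also differed between genotypes at an unadjusted p under 0.05, and 0 passed after adjustment. Fibroblast (median log2 fold change -0.10), endothelial (-0.03) and macrophage and monocyte (-0.13) markers stood near 0. Of the 6 fibroblast and 6 endothelial markers 0 were lower or higher at that threshold. Among the 7 macrophage and monocyte markers 1 was lower and 1 higher. Of 6 dendritic cell markers, among them Ccr7, 4 were lower in KO at an unadjusted p under 0.05, beside 6.08% of all tested genes. Their median log2 fold change was -0.60, and they summed to 96.7 to 135.2 CPM in KO and 163.7 to 210.3 CPM in WT. Flt3, a growth factor receptor gene of dendritic cells, stood at -0.75 (SE 0.23). Of 6 neutrophil markers 2 were higher at that unadjusted threshold, beside 5.23% of all tested genes. Their median was 0.36, with overlapping sums of 540.7 to 768.8 CPM in KO and 548.9 to 590.2 CPM in WT. The part of these cells in the results for the lineage factors was not tested. The 7 white adipocyte markers summed to 781.3 to 1480 CPM in KO libraries and 184.9 to 721.2 CPM in WT libraries. Markers of smooth muscle, 6 in all, summed to 1581 to 2482 CPM in KO and 919.6 to 1385 CPM in WT, so they were present in every library. At an unadjusted p under 0.05, 5 of the 7 adipocyte markers and 6 of the 6 smooth muscle markers were higher in KO, where 5.23% of all tested genes were. When the mean white adipocyte marker level was added as a covariate, a fit chosen after seeing the data, 1 of the 7 lineage factors was lower at an unadjusted p under 0.05, Gata3 at a log2 fold change of -1.08, and the others lay between -0.73 (SE 0.43, Tbx21) and -0.08 (Bcl6). In the same fit 8 of 11 T cell markers were lower at an unadjusted p under 0.05. The share of all tested genes at that threshold was not computed for this fit. The mean log2 CPM of the adipocyte markers was 5.31 to 6.28 in KO and 2.91 to 5.27 in WT. The groups do not overlap on it, so the fit cannot fully tell this level apart from genotype. The SE for Gata3 was 0.40 with the covariate and 0.25 without it. Skeletal muscle markers summed to 982.9 CPM in KO replicate 3 and to 5.01 to 16.03 CPM in the other 5 libraries, and their part in the high values of that library was not tested.

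For each lineage factor the 3 protein-coding genes with the closest profile were found, by the root mean square difference between log2 CPM profiles centred over the 6 libraries, among 13395 genes with a mean of at least 1 CPM. Tbx21 lay closest to Cdh3 (0.129 log2 units), Lag3 (0.135), an inhibitory receptor gene of activated T and NK cells, and Pml (0.149), an interferon-induced gene. Gata3 lay closest to Mov10 (0.129), Znfx1 (0.136) and Ass1 (0.137), and Eomes to H2-Q7 (0.0925), Sdc3 (0.131) and Cd200r4 (0.136). Tcf7 lay closest to Igtp (0.0643), H2-Q4 (0.0745) and Xlr4b (0.0824), and Lef1 to Gbp4 (0.0871), Gbp5 (0.0927) and Satb1 (0.0931). Among these, Igtp, Gbp4 and Gbp5 are interferon-inducible GTPase genes, H2-Q4 and H2-Q7 are class I histocompatibility genes, and Satb1 encodes a chromatin organiser of T cells. Bcl6 lay closest to Tstd1 (0.0466), Fam241a (0.059) and Plekhf2 (0.0741), and Ikzf3 to Dopey2 (0.034), Cpxm1 (0.0636) and Ttc7 (0.0678). With 6 libraries and so many candidates some profile lies close to any gene, and reads of the similar H2-Q and Gbp copies can be dropped or split. The profiles include the difference between genotypes, and each closest gene had a negative log2 fold change of its own.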

How the data were processed

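Poly-T selected RNA of abdominal aorta was sequenced in 3 KO and 3 WT libraries. The deposited table holds raw whole-number counts per gene; HISAT2 2.0.5, featureCounts 1.5.0-p3 and the build GRCm38 come from the submitters' processing notes. How strand and multi-mapping reads were handled, and the annotation release, were not given in the sources used here. No pair of libraries agreed within sampling noise (chi-square per degree of freedom 25.6 to 81 over genes with at least 20 counts).

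Genes were kept by filterByExpr and scaled by TMM in R 4.3.3. KO was tested against WT with edgeR 4.0.16, adjusting by Benjamini-Hochberg over every tested gene; the test was tried on simulated counts first. SE is the log2 fold change divided by the square root of F. Log2 CPM used a prior count of 2. Exons and positions came from GENCODE M21, flanks from RefSeq. Alternatives used DESeq2 1.42.0, limma 3.58.1 (voom), other scalings and filters, a replicate block and leaving out libraries in turn. Named genes were the 7 factors, Olfr2, up to 4 per list by smallest unadjusted p, 1 to 3 markers per cell type and 3 closest profiles each; Prdm1 was named for its ratio, and 1 gene the rule takes is not reported here. All were chosen with earlier results of these data known. Figures used matplotlib 3.10.9.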

Additional observations from a re-analysis of the deposited data

How the results depend on the processing

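All 7 lineage factors kept a negative log2 fold change under each of the 16 alternatives, and adjusted p crossed 0.05 in 3 cases. The alternatives reuse the same libraries, and 1 of the 16, a legacy setting of the edgeR fit, repeated the main values for all 7. With DESeq2 Tbx21 (-0.90, adjusted p = 0.0447) and Gata3 (-1.002, adjusted p = 0.0383) passed, and with no filter on low counts Tbx21 passed in edgeR (-0.90, adjusted p = 0.0218); over all alternatives the adjusted p ranged up to 0.873 for Tbx21 and 0.814 for Gata3. Genes called over the whole table numbered 644 with no filter, 451 with DESeq2, 0 with limma-voom, 0 with the replicate block, and 0 to 155 with 1 library left out; the cause was not tested. Lineage factors lower at an unadjusted p under 0.05 numbered 3 to 7 with 1 library left out and 1 with the white adipocyte covariate, which was added after seeing the data. The log2 fold changes were then -0.73 for Tbx21, -0.43 for Tcf7 and -0.42 for Lef1, and the SE for Tbx21 was 0.43 with the covariate and 0.27 without it. The covariate gave 3 of 35 other lymphoid factors, 3 of 12 type 1 and cytotoxic genes, 1 of 6 naive and memory genes and 3 of 7 NK cell markers. No share of all tested genes was computed for the fits with a library left out or with the covariate. The level used as covariate was higher in every KO library than in any WT library, so it cannot be fully told apart from genotype. The 4 log2 ratios moved by less than the pooled SD between libraries of a genotype but each changed sign with at least 1 library left out, with 1 library left out ranging from -0.13 to 0.27 for Tbx21 to Gata3 and from -0.42 to 0.10 for Bcl6 to Prdm1. Same-numbered KO and WT libraries did not deviate together (correlations of -0.101, -0.0622 and -0.12). The labels state no pairing, and with 3 libraries of each genotype these values cannot exclude a weak one. With the replicate block Gata3 stood at -1.01 and Tbx21 at -0.89, and 5 factors were under an unadjusted p of 0.05. Gata3 rested on 42 to 107 counts per library.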
